A study of Homo sapiens with 6 samples.

Results

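Genes for 10 histone acetyltransferases were followed across the 6 arrays of a study of A549 cells, an established line of human lung adenocarcinoma. They are EP300, CREBBP, KAT2A, KAT2B, KAT5, KAT6A, KAT6B, KAT7, KAT8 and HAT1. They were chosen by symbol, as the enzyme class that the series title names as the target of the compounds tested. Each symbol matched 1 probe set, none of which carried a second symbol, so they make up 10 of 53617 probe sets and 10 of the 22395 genes tested. Every one of the 10 had a mean signal above that of the median gene.

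The cells received vehicle alone or 2 µM of Comp.2 or Comp.4 a day after plating, and RNA was taken 2 days later, with 2 arrays in each of the 3 groups. The compounds carry code names, and the design text of the series calls both of them 646-PIP, while the treatment protocol has 664-PIP. All 6 samples are of the same line in the same medium, and the labels do not say that the 2 replicates of a group were separate cultures. P-values therefore rest on array-to-array spread alone, and that spread could be purely technical.

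Histone acetyltransferases move the acetyl group of acetyl-CoA onto lysines of histone tails and of other proteins. Acetylated tails carry less positive charge and are bound by bromodomain proteins, and the mark is found at active promoters and enhancers. The p300/CBP pair (EP300 and CREBBP) consists of large coactivators that many transcription factors recruit. KAT2A and KAT2B, of the GNAT family, are catalytic subunits of the SAGA and ATAC complexes. The MYST family holds KAT5, KAT6A, KAT6B, KAT7 and KAT8, each at the core of a multisubunit complex. HAT1 is a type B enzyme, which acetylates newly made histone H4 before it is placed on DNA.

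The promoters of CREBBP, KAT6B and EP300 are shown because these 3 genes had the lowest differences between Comp.4 and vehicle, and that of KAT2A because it had the highest. Each line is the 250 bases before the gene's most upstream annotated start, read in the direction of transcription, from RefSeq for GRCh38.p14. The windows are chr16:3880714-3880963 (minus strand) for CREBBP, chr10:74825005-74825254 (plus) for KAT6B, chr22:41092342-41092591 (plus) for EP300 and chr17:42121368-42121617 (minus) for KAT2A. Capitals mark any match, on either strand, to the GC box GGGCGG, the CRE half-site TGACG, the ETS core CCGGAA, the CCAAT box CCAAT or the TATA box TATAAA, with overlapping matches counted separately.
CREBBP: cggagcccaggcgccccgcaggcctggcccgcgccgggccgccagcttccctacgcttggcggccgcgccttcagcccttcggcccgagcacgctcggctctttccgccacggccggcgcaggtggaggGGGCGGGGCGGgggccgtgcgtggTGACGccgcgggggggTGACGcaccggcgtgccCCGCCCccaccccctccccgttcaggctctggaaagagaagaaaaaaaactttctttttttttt
KAT6B: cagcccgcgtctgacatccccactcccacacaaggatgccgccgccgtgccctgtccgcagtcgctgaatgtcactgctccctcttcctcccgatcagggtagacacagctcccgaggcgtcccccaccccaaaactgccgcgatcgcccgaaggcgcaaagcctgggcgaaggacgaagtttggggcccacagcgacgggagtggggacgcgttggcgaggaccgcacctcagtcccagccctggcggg
EP300: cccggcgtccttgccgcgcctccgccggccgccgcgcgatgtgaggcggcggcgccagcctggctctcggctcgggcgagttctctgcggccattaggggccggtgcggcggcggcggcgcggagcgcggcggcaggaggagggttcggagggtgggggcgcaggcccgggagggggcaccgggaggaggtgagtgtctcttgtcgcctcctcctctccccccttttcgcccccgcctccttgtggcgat
KAT2A: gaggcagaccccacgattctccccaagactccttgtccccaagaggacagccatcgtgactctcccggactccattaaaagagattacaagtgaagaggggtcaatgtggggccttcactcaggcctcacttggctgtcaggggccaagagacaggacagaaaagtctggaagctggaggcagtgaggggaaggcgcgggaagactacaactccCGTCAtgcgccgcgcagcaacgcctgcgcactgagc

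The CREBBP window held 3 GC boxes, of which 2 overlap, and 2 CRE half-sites, the first of them starting 97 bases before the start site. The EP300 and KAT6B windows held no match to any of the 5 motifs, and the KAT2A window held 1 CRE half-site, 36 bases before the start. Over all 35116 windows of this length, 42.6% held a GC box, 21.2% a CRE half-site, 14.5% an ETS core, 32.0% a CCAAT box and 10.7% a TATA box. G and C made up 72.4% of the CREBBP window, 68.0% of that of KAT6B, 76.8% of that of EP300 and 58.8% of that of KAT2A, against a median of 58.0% over all windows. Of the 10 genes 8 had an entry in the promoter table. The windows of KAT5, KAT7 and HAT1 held 3, 2 and 2 CRE half-sites, and KAT2B held none but had 3 GC boxes. A match describes letters only and says nothing of binding.

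Levels are log2 signals of 1 probe set each, so they are compared within a gene and never between genes. RMA had set all arrays to the same scale, with medians between 4.55 and 4.56, so a shift shared by most transcripts is not visible, and fewer cells of a kind and less RNA per cell cannot be told apart. The 10 epithelial and A549 markers were all above the median gene. None of the 7 measured defining markers of alveolar type 2 cells was, which include SFTPC and NKX2-1. Of the fibroblast markers 1 of 6 was above it, of the endothelial markers 1 of 6 and of the leukocyte markers 2 of 7. The summed signal of the leukocyte list was 8.97 to 9.08 (log2) with vehicle, 9.55 to 9.56 with Comp.2 and 9.33 to 9.34 with Comp.4. That of the endothelial list was 7.07 to 7.08, 7.02 to 7.11 and 7.23, and the fibroblast sums all lay between 7.04 and 7.21. The alveolar type 2 sums were 6.92 to 6.94, 7.02 to 7.10 and 7.05 to 7.16, and the epithelial and A549 sums 13.827 to 13.858, 13.760 to 13.825 and 13.760 to 13.762. Within the leukocyte list CD68, a lysosomal glycoprotein gene, rose by 0.67 with Comp.2 (adjusted p = 0.0412 in limma), and PTPRC, CD3E and MS4A1 lay below the median gene. The part of these markers in the results was not tested.

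Among the p300/CBP coactivators, CREBBP had log2 signals of 9.56 and 9.67 with vehicle, 9.60 and 9.65 with Comp.2, and 9.26 and 9.15 with Comp.4. Both Comp.4 arrays lay below all 4 others, and the vehicle and Comp.2 arrays overlapped. EP300 had 8.91 and 8.96 with vehicle, 8.86 and 8.88 with Comp.2, and 8.53 and 8.72 with Comp.4. The 3 groups did not overlap, with vehicle highest and Comp.4 lowest, though the Comp.4 arrays lay 0.19 apart.

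Of the MYST genes, KAT6B, the catalytic subunit of a complex that acetylates histone H3, stood at 8.02 and 7.99 with vehicle, 7.87 and 7.88 with Comp.2, and 7.54 and 7.68 with Comp.4. The groups were again apart and in the same order. Its paralogue KAT6A stood at 8.49 and 8.56, then 8.37 and 8.39, then 8.37 and 8.24. Vehicle was the highest group, and the upper Comp.4 array lay next to the lower Comp.2 array. KAT5, known as TIP60, the enzyme of the NuA4-type complex, stood at 6.95 on both vehicle arrays, at 7.04 and 6.97 with Comp.2, and at 6.87 and 6.66 with Comp.4. Its Comp.4 arrays were the lowest and lay 0.22 apart, the widest gap within any group among the 10 genes.

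KAT7, also called HBO1, which acetylates histones H3 and H4 around replication origins and genes, had 7.39 and 7.57 with vehicle, 7.41 and 7.44 with Comp.2, and 7.22 and 7.37 with Comp.4. The vehicle arrays lay 0.18 apart and enclosed those of Comp.2. KAT8, also called MOF, which acetylates lysine 16 of histone H4, had 7.37 and 7.29 with vehicle, 7.08 and 7.24 with Comp.2, and 7.07 and 7.19 with Comp.4. Vehicle was the highest group and the compounds overlapped.

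In the GNAT family KAT2A, also called GCN5, had 8.33 and 8.37 with vehicle, 8.48 and 8.46 with Comp.2, and 8.54 and 8.51 with Comp.4, in 3 groups that did not overlap. KAT2B, also called PCAF, had 7.81 and 7.90 with vehicle, 8.00 and 8.02 with Comp.2, and 8.00 and 7.90 with Comp.4, which overlapped vehicle. HAT1 had the narrowest range of the 10 genes over the 6 arrays, 0.11, with 9.54 on both vehicle arrays, 9.55 and 9.64 with Comp.2, and 9.65 and 9.60 with Comp.4.

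**Figure D1:**
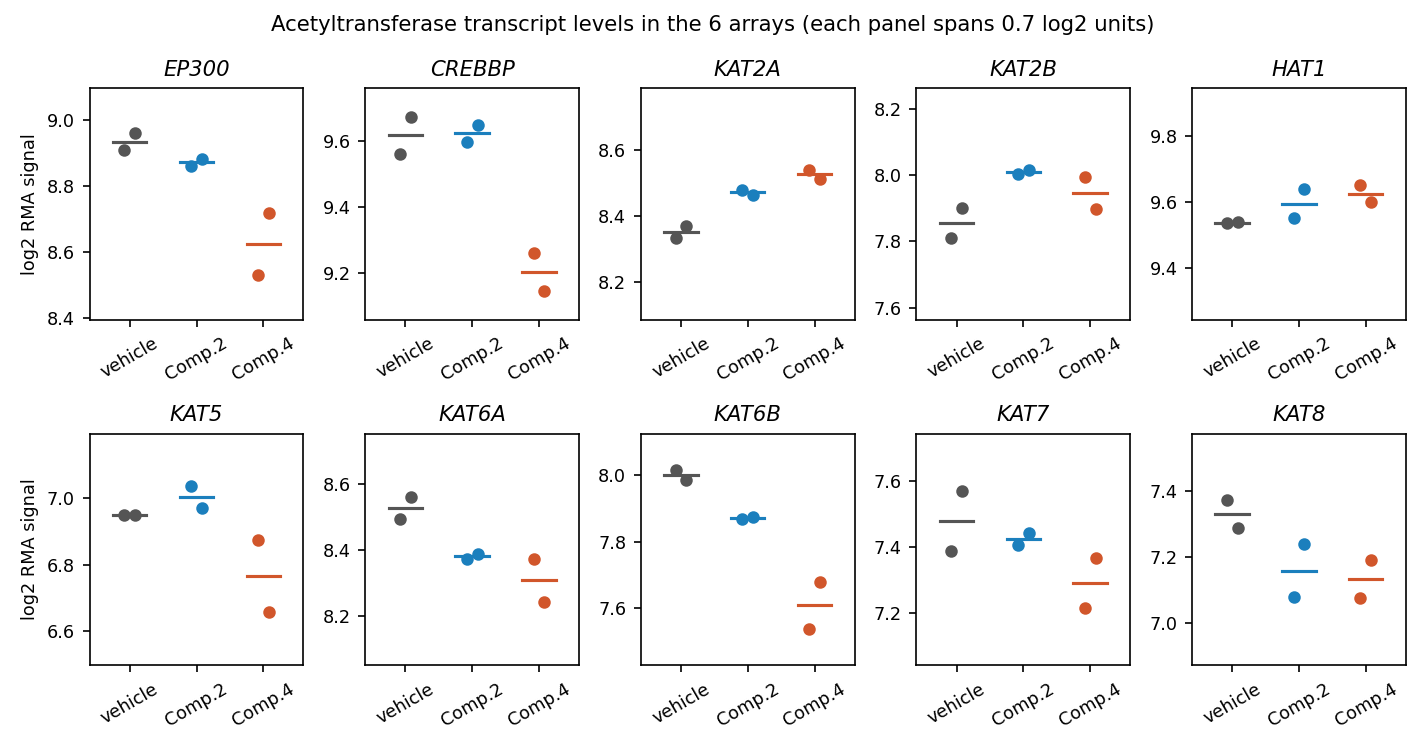
Log2 RMA signal (vertical axes, each spanning 0.7 log2 units) of the 10 acetyltransferase genes in the 6 arrays, with a point per array and a bar at the mean of each group of 2. The Comp.4 points of CREBBP, EP300 and KAT6B lie below all others, while those of KAT2A lie above all others.

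The first comparison asked whether Comp.2 altered these transcripts. None of the 10 passed the threshold, an adjusted p of 0.05 in limma over all genes tested, which 44 genes (0.196%) passed. The 10 differences from vehicle ran from -0.17 for KAT8 to 0.15 for KAT2B, with 5 below 0 and 5 above. Of all genes 48.7% were below 0. The median of the 10 was -0.02 against 0.004 over all genes. CREBBP differed by 0.01 (log2, SE 0.08, 95% interval -0.19 to 0.20, n = 2 arrays a group) and EP300 by -0.06 (SE 0.09, -0.27 to 0.14). No member had an unadjusted p under 0.05, a level that 4.94% of all genes and 6.53% of the brighter genes (those above the median gene) passed as lower, and 6.23% and 7.16% as higher. The adjusted p-values of the 10 genes in limma ran from 0.505 to 0.985.

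Apart from their means, the arrays of 4 members (EP300, KAT6A, KAT6B and KAT8) were all lower with Comp.2 than with vehicle, and those of 4 (KAT2A, KAT2B, KAT5 and HAT1) all higher. With 2 arrays a group, 21.0% of all genes (27.1% of the brighter ones) were apart in the first way and 22.7% (23.5%) in the second. CREBBP turned to -0.010 with arrays centred on the gene median. No member passed with a prior variance that follows signal, where 1.73% of all genes did and 0.723% as lower. Nor did any in a fit of the brighter genes alone, where 2.08% of genes passed and 0.706% as lower.

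The second comparison asked whether Comp.4 altered them. The p300/CBP and MYST genes, 7 in all, had differences below 0, as did 45.1% of all genes and 50.6% of the brighter ones. KAT2A, KAT2B and HAT1 had differences above 0. No member passed the threshold in limma, which 33 genes (0.147%) passed. CREBBP had the lowest difference, -0.41 (log2, SE 0.08, 95% interval -0.61 to -0.22, adjusted p = 0.104 in limma), from 9.62 ± 0.08 to 9.20 ± 0.08 (mean ± SD, n = 2), a 1.33-fold lower level. KAT6B followed at -0.39 (SE 0.08, -0.58 to -0.21, adjusted p = 0.104 in limma), from 8.00 ± 0.02 to 7.61 ± 0.10. EP300 had -0.31 (SE 0.09, -0.51 to -0.11, adjusted p = 0.163 in limma), from 8.93 ± 0.04 to 8.62 ± 0.13. KAT2A had the highest difference, 0.18 (SE 0.07, 0.01 to 0.34, adjusted p = 0.274 in limma).

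The other members lay between these. KAT6A had -0.22 (95% interval -0.40 to -0.03), KAT8 -0.20 (-0.41 to 0.02), KAT7 -0.19 (-0.41 to 0.04) and KAT5 -0.18 (-0.40 to 0.03). KAT2B had 0.09 (-0.09 to 0.27) and HAT1 0.09 (-0.09 to 0.26). KAT5 moved to -0.29 without Comp.4 replicate 1 and to -0.07 without replicate 2. KAT7 moved to -0.10 without vehicle replicate 2 and to -0.11 without Comp.4 replicate 1. KAT2B moved to 0.14 without Comp.4 replicate 2, and to 0.04 without Comp.4 replicate 1 and 0.05 without vehicle replicate 1. The median of the 10 was -0.19, against 0.02 over all genes and -0.003 over the brighter genes. The smallest difference past the threshold among brighter genes was 0.61, larger than that of any of the 10.

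Read against all genes, 1.48% had a difference as low as that of CREBBP or lower, 1.69% as low as KAT6B and 3.54% as low as EP300. Of the brighter genes these shares were 1.75%, 2.03% and 4.59%. At an unadjusted p under 0.05, 4 of the 10 (CREBBP, KAT6B, EP300 and KAT6A) were lower and 1, KAT2A, higher. That level was passed as lower by 7.88% of all genes and 12.2% of the brighter genes, and as higher by 8.64% and 9.63%. The arrays of 7 members were all lower with Comp.4 than with vehicle, against 22.2% of all genes and 31.1% of the brighter ones, and those of KAT2A and HAT1 all higher, against 27.2% and 28.4%.

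These calls depended on the fit. With the prior variance that follows signal, CREBBP (adjusted p = 0.00315), KAT6B (0.00798) and EP300 (0.0205) passed in limma, beside 5.47% of all genes and 3.30% of them as lower. All members are brighter genes, for which no share was taken under this prior. In a fit of the brighter genes alone, which re-estimates the prior and adjusts over 11197 genes, CREBBP (adjusted p = 0.0236) and KAT6B (0.0231) passed in limma, beside 7.49% of genes and 4.46% as lower, and EP300 missed the threshold at 0.0528. Over all alternatives the adjusted p in limma of CREBBP ran from 0.00315 to 0.383, that of KAT6B from 0.00798 to 0.384 and that of EP300 from 0.0205 to 0.464.

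The last comparison was of Comp.4 with Comp.2, the only pair of compounds, given at equal dose and time. CREBBP was lower with Comp.4 than with Comp.2 by a log2 difference of -0.42 (SE 0.08, 95% interval -0.61 to -0.23, adjusted p = 0.102 in limma). KAT6B had -0.26 (SE 0.08, -0.45 to -0.08, adjusted p = 0.208 in limma), EP300 -0.25 (SE 0.09, -0.45 to -0.04, adjusted p = 0.263 in limma) and KAT5 -0.24 (SE 0.09, -0.46 to -0.02, adjusted p = 0.301 in limma). None of the 10 passed, while 83 genes (0.371%) did. Those 4 had an unadjusted p under 0.05, a level passed as lower by 7.45% of all genes and 10.8% of the brighter ones. No member passed it as higher, against 7.52% and 9.38%. With 1 array left out, 2 or 3 members were lower at that level, where 5.93% to 6.84% of all genes were lower. EP300 moved to -0.15 without Comp.4 replicate 1, and KAT5 to -0.13 without Comp.4 replicate 2.

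The other 6 genes had intervals that held 0: KAT7 -0.13 (95% interval -0.35 to 0.09), KAT6A -0.07 (-0.26 to 0.11), KAT2B -0.06 (-0.25 to 0.12), KAT8 -0.03 (-0.24 to 0.19), HAT1 0.03 (-0.14 to 0.20) and KAT2A 0.06 (-0.11 to 0.22). The intervals reach well away from 0, so they do not show that the compounds act alike. The arrays of 7 members were all lower with Comp.4 than with Comp.2, against 21.6% of all genes and 28.3% of the brighter ones, and those of KAT2A all higher, against 23.7% and 26.6%. With the variance prior that follows signal, CREBBP (adjusted p = 0.00278) and KAT6B (0.0455) passed in limma, beside 4.80% of all genes and 2.64% of them as lower. Again no share of the brighter genes was taken under this prior. Among the brighter genes CREBBP alone passed in limma (adjusted p = 0.0215), beside 6.39% of genes and 3.50% as lower. Each pair of comparisons shares the arrays of a group, so their values are not independent of each other.

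**Figure D2:**
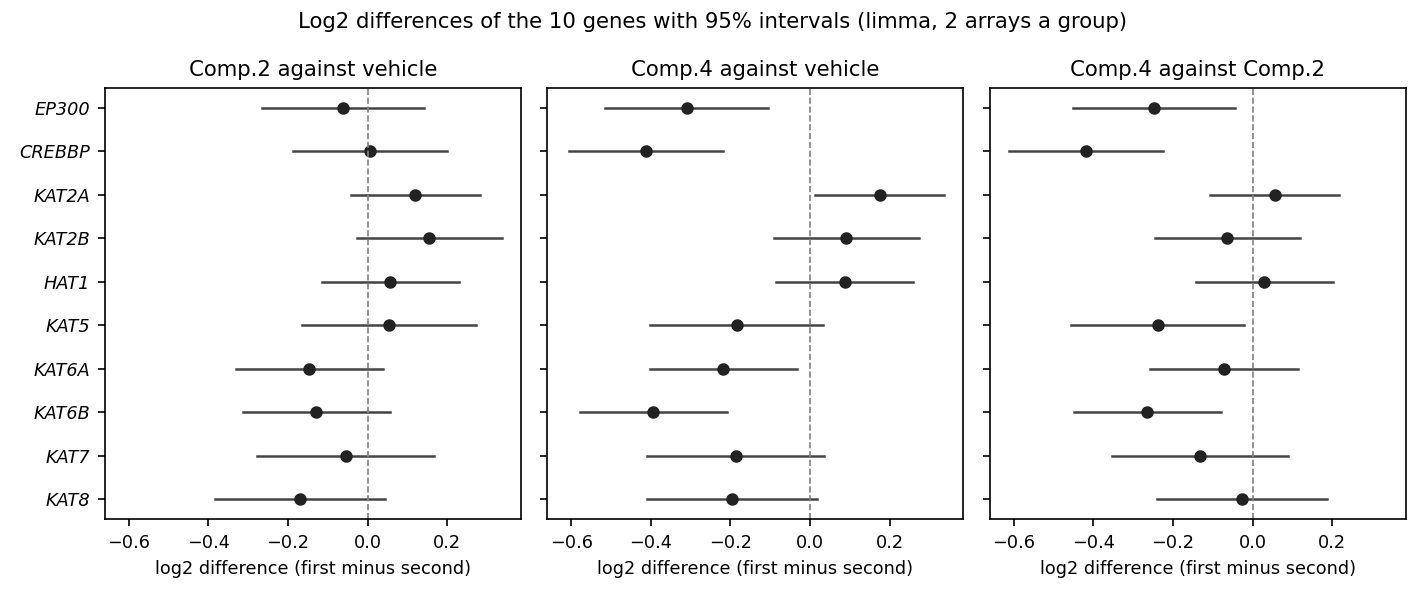
Log2 differences of the 10 genes (points) with 95% intervals from limma (lines) in the 3 comparisons, as first group minus second, with 2 arrays a group. All Comp.2 intervals hold 0, and those of CREBBP, KAT6B, EP300 and KAT6A lie below 0 for Comp.4 against vehicle.

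Paralogues did not keep step in every array. Taken within an array and set against the vehicle mean, the gap of CREBBP over EP300 shifted by 0.05 and -0.25 in the 2 Comp.4 arrays, so the gene of this pair farther below vehicle was EP300 in the first and CREBBP in the second. The gap of KAT6B over KAT6A shifted by -0.31 and -0.04, and that of KAT2A over KAT2B by 0.05 and 0.12. With Comp.2 all 6 shifts lay between -0.05 and 0.08. The vehicle arrays lay 0.03 to 0.05 from their own mean in these gaps.

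The enzymes work with subunits and partners, which were read from 8 lists written from textbook knowledge. The lists were chosen with earlier results of these data known, so their shares are descriptions and no independent test. Of the 129 symbols beside the members, 120 were measured. None of the 120 passed the threshold in limma in any of the 3 comparisons. At an unadjusted p under 0.05, 4 were higher and 12 lower with Comp.2. The lower share, 10.0%, stands beside 4.94% of all genes and 6.53% of the brighter genes, to which 114 of the 120 belong, and the higher share, 3.33%, beside 6.23% and 7.16%. With Comp.4 4 were higher (3.33%, against 8.64% and 9.63%) and 20 lower (16.7%, against 7.88% and 12.2%). Between the compounds 8 were higher (6.67%, against 7.52% and 9.38%) and 10 lower (8.33%, against 7.45% and 10.8%). Their medians were -0.03, -0.03 and -0.01. Of all genes 48.7%, 45.1% and 47.7% were below 0 in the 3 comparisons, and of the brighter genes 52.8%, 50.6% and 51.0%. With the variance prior that follows signal 2 (1.67%), 12 (10.0%) and 8 (6.67%) of the 120 passed, against 1.73%, 5.47% and 4.80% of all genes. No share of the brighter genes was taken under that prior, so these shares do not compare genes of like signal. In the fit of brighter genes 0, 4 (3.51%) and 2 (1.75%) passed, against 2.08%, 7.49% and 6.39%. The genes named from a list are the 2 with the largest differences among its brighter genes whose arrays did not overlap between the groups, so a gene outside that rule can lie farther from 0.

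Subunits of the SAGA and ATAC complexes, which hold KAT2A or KAT2B, had a median difference of -0.002 with Comp.4 over 27 genes, and 14 of them were below 0. By that rule the genes were ATXN7 (-0.26), of the deubiquitinating module of SAGA, and POLE3 (0.21), a histone-fold protein. With Comp.2 the median was -0.03, and TADA2A (-0.19), an adaptor of ATAC, and SUPT3H (-0.19), of the SAGA core, led. Between the compounds POLE3 (0.29) and YEATS2 (-0.23), a reader subunit of ATAC, led.

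The 16 measured subunits of the NuA4-type complex around KAT5 had medians of -0.07 with Comp.2 and -0.01 with Comp.4. Below 0 were 13 and 8 of them, against 52.8% and 50.6% of the brighter genes. EP400, the large ATPase of the complex, had -0.38 with Comp.4 (SE 0.07, adjusted p = 0.0993 in limma), and MBTD1 had -0.32. With Comp.2 YEATS4, a reader subunit, had -0.30 and EPC2, a scaffold, -0.27. YEATS4 was higher with Comp.4 than with Comp.2 by 0.34, and MRGBP, a small subunit, by 0.49 (SE 0.10, adjusted p = 0.103 in limma). EP400 passed with the variance trend (adjusted p = 0.00354 in limma), as did MRGBP (0.00737) and YEATS4 (0.00919) between the compounds.

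The 11 subunits of the MSL and NSL complexes, which hold KAT8, had medians of -0.13 with Comp.2 and -0.17 with Comp.4. Below 0 were 9 and 8 of them, against 52.8% and 50.6% of the brighter genes. MSL3, the chromodomain subunit of MSL, had -0.51 with Comp.4 (SE 0.11, adjusted p = 0.119 in limma), the lowest value among the 120 genes, and HCFC1, a host cell factor, had -0.31. The signal of MSL3 was near that of the median gene (5.35), with means of 5.74 with vehicle and 5.23 with Comp.4. At an unadjusted p under 0.05, 5 of the 11 were lower with Comp.4 and none higher, where 7.88% of all genes and 12.2% of the brighter ones were lower and 8.64% and 9.63% higher. With Comp.2 MSL2 (-0.21), a ubiquitin ligase subunit, and KANSL1 (-0.17), the NSL scaffold, led, and between the compounds MSL3 (-0.38) and HCFC1 (-0.15).

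The 9 subunits of the KAT6A, KAT6B and KAT7 complexes, some of them found with KAT7 alone, had medians of -0.01 with Comp.2, -0.01 with Comp.4 and 0.02 between the compounds. JADE1, a scaffold that directs KAT7 to histone H4, had -0.25 with Comp.2 and -0.31 with Comp.4. ING4, a reader of methylated histone H3, had -0.19 with Comp.2 and 0.18 between the compounds, MEAF6 had 0.19 with Comp.4, and BRD1, a scaffold, had 0.08 between the compounds. The 4 measured partners of HAT1 had medians of -0.03, 0.07 and 0.04. Among them the histone chaperone gene ASF1A had 0.18 with Comp.4 and 0.27 between the compounds, ASF1B had 0.10 between the compounds, and NASP, which binds H3 and H4, had -0.06 with Comp.2 and -0.14 with Comp.4.

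Of 16 measured partners of p300 and CBP, 13 were below 0 with Comp.4, against 50.6% of the brighter genes, with a median of -0.04. With Comp.2 9 were below 0, against 52.8%, with a median of -0.01. The nuclear receptor coactivator gene NCOA1 had -0.28 and CRTC3, a coactivator of CREB, -0.28 with Comp.4. With Comp.2 the cell cycle factor gene E2F1 had -0.35 and CRTC1 0.24, and between the compounds these had 0.39 and -0.34. The 19 other acetyltransferases had medians of -0.01, -0.04 and -0.04. SAT1, which acetylates polyamines, had 0.29 with Comp.2, and GTF3C4, a subunit of a polymerase III factor, -0.21. TAF1, outside the naming rule, had -0.36 with Comp.2 and -0.20 with Comp.4. NAA20, which acetylates protein amino termini, had 0.24 with Comp.4 and 0.18 between the compounds, NAA25, the auxiliary subunit that works with it, had -0.23 with Comp.4, and ESCO2, which acetylates cohesin, had -0.18 between the compounds.

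The 22 genes of acetyl-CoA supply had medians of 0.02, -0.02 and -0.06. CS, the citrate synthase gene, had -0.35 with Comp.4 (SE 0.09, adjusted p = 0.143 in limma) and -0.22 between the compounds. PDK3, a kinase that shuts down pyruvate dehydrogenase, had -0.27 with Comp.4. By the naming rule DLD (0.26) and PDHB (-0.21), both of the pyruvate dehydrogenase complex, led with Comp.2, and PDHB had 0.22 between the compounds. PANK1, outside that rule, had 0.31 with Comp.2 and -0.24 between the compounds.

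**Figure D3:**
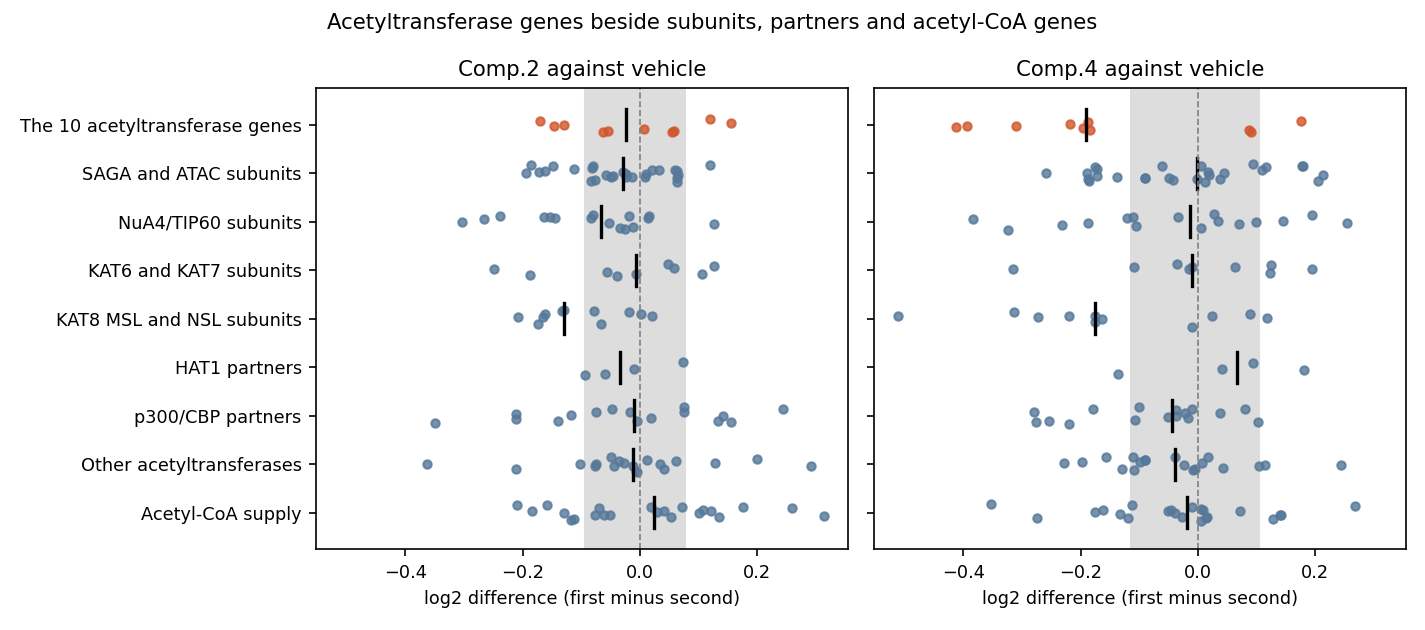
Log2 difference from vehicle (horizontal axes) of each acetyltransferase gene and of the genes of 8 related lists, with Comp.2 at left and Comp.4 at right. Points are genes, black bars list medians and the grey band the middle part of the brighter genes, from the 25th to the 75th percentile; the acetyltransferase median is -0.02 at left and -0.19 at right.

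To show what the profiles of EP300 and CREBBP resembled, all other brighter genes were ranked by the root mean square distance between log2 profiles over the 6 arrays, each centred on its own mean. Nearest to EP300 among 11196 genes were HMBOX1 (distance 0.02, r = 0.994), a homeobox gene, AKAP13 (0.03, r = 0.988), an anchoring protein gene, and FAT1 (0.03, r = 0.981), a cadherin gene. Nearest to CREBBP were AKR1C2 (0.03, r = 0.991), an aldo-keto reductase gene, SLC23A1 (0.03, r = 0.991), a vitamin C transporter gene, and ATXN2 (0.04, r = 0.978), an RNA-binding protein gene. These are descriptions over 6 arrays, whose groups all the genes share.

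Within the family, KAT6B was the member nearest to EP300, at rank 34 of 11196, ahead of KAT7 at rank 256 and CREBBP at rank 1821. KAT6B was also the member nearest to CREBBP, at rank 393, followed by KAT5 at rank 439 and EP300 at rank 468. KAT2A was the farthest member from both, at ranks 8283 and 8146. The EP300, KAT6B, KAT7 and KAT8 profiles share a lower first Comp.4 array, whereas the other members, CREBBP, KAT5 and KAT6A among them, have the lower value on the second.

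**Figure D4:**
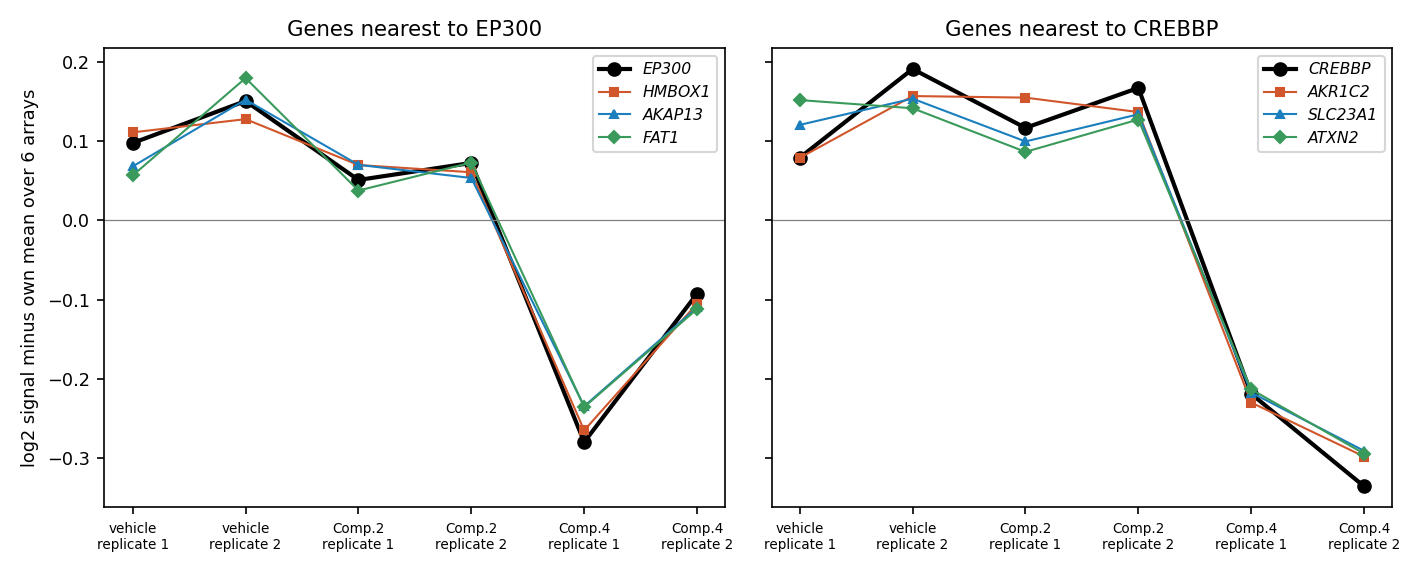
Log2 signal minus the gene's own mean (vertical axis) over the 6 arrays, for EP300 at left and CREBBP at right (black), each with the 3 brighter genes nearest in profile (colours). Lines only join a gene's points; all profiles are lowest in the 2 Comp.4 arrays, and the first of these is the lower one for EP300 and the second for CREBBP.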

How the data were processed

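Transcript levels of A549 cells were measured on Affymetrix whole-transcript arrays, 2 each for vehicle, Comp.2 and Comp.4. The values are the authors' deposited log2 signals, which the submitters' processing notes credit to RMA, in notes that list Transcriptome Analysis Console 2.0 and Affymetrix Expression Console 1.3.1. RMA corrects background, equalises the arrays' distributions and summarises probes. RMA makes differences of dim probe sets too small. Scanner files and detection calls were not used here. Arrays of a group correlated at r of 0.992 to 0.994.

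Of 53617 probe sets, 23871 had 1 gene symbol, 1842 several and 27904 were unnamed here. Entrez numbers of 22569 matched a RefSeq table of GRCh38.p14, updating 90 symbols. The brightest probe set stood for a gene, giving 22395 genes. They were fitted with limma 3.58.1 in R 4.3.3, with a mean per group over all 6 arrays (3 residual and 3.71 prior degrees of freedom). P-values are two-sided with Benjamini-Hochberg adjustment over all genes, and a permutation of 2 against 2 arrays cannot go below 0.333. The fit was tested on simulated data. Promoter windows were searched for 5 motifs.

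Named genes were all members, the 2 largest differences per list per comparison (among brighter genes whose arrays did not overlap, none having passed) and the 3 nearest profiles. Other genes that passed only under alternatives are given as counts. Members and lists were chosen with earlier results of these data known. The labels state no pairing by replicate number, so none was fitted in the main analysis. Deviations of same-numbered arrays correlated at -0.04 to 0.03, which does not settle how the arrays were paired. Alternatives were a variance trend, brighter genes only, mean probe sets, all probe sets, 2 groups only, centred arrays, a replicate block, a threshold of 0.10 and each array left out.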

Additional observations from a re-analysis of the deposited data

How the results depend on the processing

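Over 13 alternatives for each of 10 genes and 3 comparisons, the differences kept their direction and stayed short of the threshold in 126 of 130 cases for Comp.2, 125 for Comp.4 and 124 between the compounds; 5 and 3 of the rest passed. Direction could turn only with centred arrays or without an array of a compared group. The other alternatives refit the same values, so they could not move a member's difference. Leaving out either array of the group not compared gave the same fit as the 2 compared groups alone. Those cases are repeats within the 130. For Comp.2 the member median was -0.02 and ran from -0.069 to 0.045 when 1 array was left out. CREBBP, at 0.01 with Comp.2, turned to -0.010 with arrays centred on the gene median and ran from -0.049 to 0.063 without 1 array. KAT7 ran from -0.14 to 0.035 there, turning without vehicle replicate 2. Between the compounds KAT8 ran from -0.11 to 0.056 and HAT1 from -0.014 to 0.073 without 1 array. HAT1 turned without Comp.2 replicate 1, KAT8 without Comp.2 replicate 2 or Comp.4 replicate 1, CREBBP without vehicle replicate 1 or Comp.2 replicate 2, and the Comp.2 median without vehicle replicate 2. The Comp.4 median against vehicle was -0.19, -0.22 with centred arrays and -0.22 to -0.18 without 1 array, and that between the compounds was -0.10, with -0.13 to -0.089 without 1 array.

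The number of members called was 0 in all 3 comparisons, where 0.196%, 0.147% and 0.371% of all genes passed. Without any 1 array few or no genes of any kind passed, so those fits could not test this number. There the lone array of a group is assumed to vary like the others. A prior variance following signal made the number 3 (Comp.4, beside 5.47% of all genes) and 2 (between the compounds, beside 4.80%). A fit of brighter genes made it 2 (beside 7.49% of them) and 1 (beside 6.39%). For the 120 related genes the same changes gave 2 (Comp.2), 12 (Comp.4) and 8, and then 4 (Comp.4) and 2 (between the compounds), with 1 (Comp.4) at an adjusted p of 0.10, a threshold chosen for this list after seeing the data. At an unadjusted p under 0.05, 2 to 4 members were lower with Comp.4 without any 1 array (5.14% to 7.89% of all genes), against 4 with all (7.88%), and 2 or 3 between the compounds (5.93% to 6.84%), against 4 (7.45%).

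Of all genes, 44, 33 and 83 passed in the 3 comparisons, against 388, 1226 and 1075 with the signal-dependent prior, 233, 839 and 716 of brighter genes fitted alone, 0, 99 and 2 with all probe sets, and 14, 0 and 0 with 2 groups only. With the replicate block 15, 4 and 0 passed, and 0 members. At an adjusted p of 0.10, 85, 309 and 274 passed, and without any 1 array 0 to 14, 0, and 0 to 1. With 2 arrays a group, 95% intervals of the members spanned 0.16 to 0.22 on either side.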
